A study of Homo sapiens with 10 samples.

Results

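The nuclear genes for the subunits of the respiratory chain and the ATP synthase were examined in Caco-2 cells in which LHFPL3-AS2, a long non-coding RNA, was targeted by CRISPR interference. Members were taken by a rule on gene names, which was set with earlier results of these data known. They were genes with a protein-coding transcript whose symbol started with NDUFA, NDUFB, NDUFC, NDUFS or NDUFV and a digit (complex I), was SDHA, SDHB, SDHC or SDHD (complex II), started with UQCR or was CYC1 (complex III), started with COX4 to COX8 and A, B, C or I (complex IV), or started with ATP5 (complex V, without ATP5SL). This gave 89 of 60554 genes, with 39 in complex I, 4 in complex II, 10 in complex III, 17 in complex IV and 19 in complex V. Of these, 79 passed the expression filter and were tested.

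Caco-2 cells derive from a carcinoma of the human colon and come to resemble enterocytes. All libraries came from 1 stable clone of Caco-2 carrying dCas9-KRAB, a Cas9 that does not cut and is fused to a repressor domain, grown in DMEM with 20% fetal bovine serum. The cells had then received a second lentivirus with hygromycin resistance, holding an empty plasmid (gCtl, 5 libraries) or a guide RNA to LHFPL3-AS2 (g1 with 3 libraries and g2 with 2). The labels do not say whether the libraries of a group came from separate cultures, so p-values measure the spread between libraries, which may be technical. Replicate numbers used here follow the order of samples within each group, and equal numbers do not mark matched libraries.

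Complexes I, III and IV pass electrons from NADH to oxygen and pump protons across the inner mitochondrial membrane, complex II feeds in electrons from succinate, and complex V uses the proton gradient to make ATP. Complexes I, III, IV and V are built from proteins of both genomes, in which the mitochondrial genome supplies core membrane proteins and the nucleus the rest, whereas every complex II subunit is nuclear. Enterocytes rely on this pathway for the energy of ion and nutrient transport.

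QuantSeq libraries, which sample the 3' end of each mRNA, held 3838803 to 8730468 estimated counts. Values are given as CPM, which are counts scaled to 1000000 after TMM normalisation, or as RPM, which are counts scaled to 1000000 by the plain library total, and since reads mark 3' ends they are compared between libraries and not between genes. LHFPL3-AS2 itself was at 0.84 to 3.73 RPM in gCtl and at 2.03 to 6.01 RPM in the g1 and g2 libraries. Its log2 fold change was 0.61 ± 0.42 (edgeR adjusted p = 0.381). The target was thus not detectably lower in these counts, and the groups are named here by their labels. LHFPL3-AS2 had only 4.39 to 44.0 estimated counts per library, too few to decide whether the guides lowered it. The paper reports reduced LHFPL3-AS2 by qPCR with each guide. The g1 and g2 libraries together are called the guide libraries. Of the 15 Caco-2 epithelial markers 11 were tested and 0 were called in the guide libraries by edgeR's quasi-likelihood test, DESeq2 or limma (4 at an unadjusted p under 0.05 by edgeR and by DESeq2, 3 by limma), while with g2 alone KRT18 was called lower (log2 fold change -0.78) and KRT20 higher (1.91, and 1.65 against g1), and their summed level was 2266 to 3080 RPM in gCtl and 2153 to 2629 RPM in the guide libraries. The 10 markers of fibroblasts, immune cells and endothelium summed to 23.0 to 44.1 RPM in gCtl and 9.38 to 28.5 RPM in the guide libraries. Of those 10, 4 were tested, among which PDGFRA and CD14 were lower (log2 fold change -2.27 and -1.67), PECAM1 was at 0.97 (called higher with g1 at 1.29) and COL1A1 at -0.05. VWF and CDH5, which define endothelium, had 4 and 6 counts over all libraries. The part of these markers in the results below was not tested.

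Among the gCtl libraries, replicate 5 stood nearest the guide libraries for the subunit genes. The median deviation of the 79 tested members from their gCtl mean, on the log2 CPM scale, was 0.20, 0.18, -0.13, 0.08 and -0.34 in gCtl replicates 1 to 5. It was -0.43, -0.41 and -0.57 in g1 and -0.44 and -0.90 in g2. Thus every guide library lay below every gCtl library, by a narrow margin for gCtl replicate 5, and g2 replicate 2 lay lowest. Counts without each of these libraries are given with the results.

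Counted over all transcripts of each gene, the subunit genes were lower in the guide libraries, in part and in every complex. Of the 79 tested members 33 were called lower and 1 was called higher (edgeR's quasi-likelihood test, fold change of at least 1.5 and Benjamini-Hochberg adjusted p of at most 0.05). That is 41.8% called lower, against 11.0% of all 11640 tested genes, and 1.27% called higher, against 8.14%. These shares of all genes also stand beside the counts by complex, module and list below. With g1 alone 9.94% of all genes were called lower and with g2 alone 13.0%. The median log2 fold change of the members was -0.54, and that of all tested genes was 0.02. Altogether 73 of 79 members had a fold change below 0, and in 22 all 5 guide libraries lay below all 5 gCtl libraries, which is 27.8% of the members against 8.33% of all tested genes. Over protein-coding transcripts alone, 0 of 4 members of complex II and 1 of 9 of complex III were called lower, as described further on. In these bulk samples, fewer cells of a kind and less RNA per cell cannot be told apart.

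**Figure D1:**
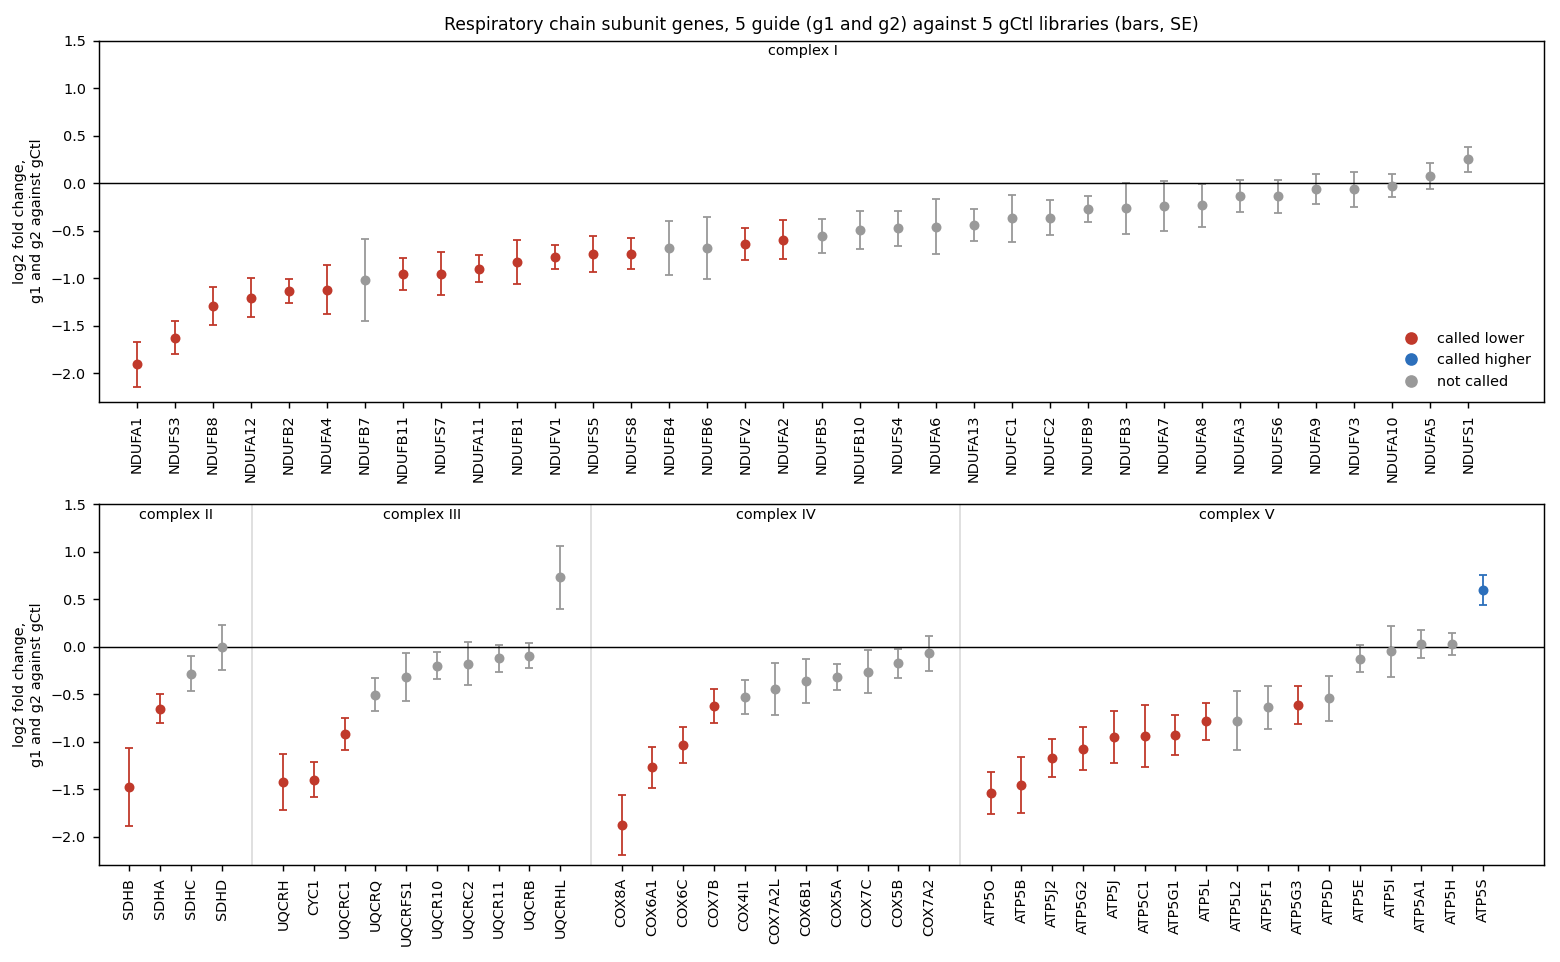
Log2 fold change of the tested subunit genes (1 left out) in 5 guide against 5 gCtl libraries, by complex and ordered by size, with the SE as bars and the colour giving the call. NDUFA1 lies lowest at -1.91, most points lie below 0, and ATP5S at 0.60 is the single gene called higher.

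Without gCtl replicate 5, 37 members were called lower against 12.2% of all genes, and without g2 replicate 2 the number was 29 against 10.1%. The members have short transcripts, with a median length of 793 bases against 2789 for all tested genes. With the trend of each library on transcript length removed, 27 members were called lower, against 11.6% of all genes, and the median log2 fold change was -0.40.

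The promoters of these genes are known for binding sites of nuclear respiratory factor 1 (NRF1), of the ETS factor GABPA and of YY1, and a promoter from RefSeq (GRCh38.p14, 250 bases before to 50 after the start) was found for 62 of the 79 tested members. The promoters of NDUFA1, COX8A and ATP5O, which were among the most reduced members, and of NDUFS1, which did not pass the test, are shown to compare their motif matches. Capitals mark matches, on either strand, to GCGCANGCG (NRF1), CCGGAAG (ETS) or ANATGGCG (YY1).
NDUFA1 (chrX:119871582-119871881, plus strand): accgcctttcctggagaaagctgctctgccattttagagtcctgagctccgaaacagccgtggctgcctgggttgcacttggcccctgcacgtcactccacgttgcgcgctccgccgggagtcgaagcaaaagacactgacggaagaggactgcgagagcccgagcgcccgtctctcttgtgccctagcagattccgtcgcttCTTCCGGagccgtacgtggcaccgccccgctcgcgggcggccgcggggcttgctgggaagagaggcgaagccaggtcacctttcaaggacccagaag
COX8A (chr11:63974370-63974669, plus strand): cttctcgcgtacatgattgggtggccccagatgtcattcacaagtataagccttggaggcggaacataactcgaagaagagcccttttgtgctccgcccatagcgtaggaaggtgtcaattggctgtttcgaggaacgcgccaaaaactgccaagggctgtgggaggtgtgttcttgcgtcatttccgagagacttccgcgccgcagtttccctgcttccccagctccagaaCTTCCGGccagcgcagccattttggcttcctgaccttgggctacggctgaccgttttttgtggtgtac
ATP5O (chr21:33915755-33916054, minus strand): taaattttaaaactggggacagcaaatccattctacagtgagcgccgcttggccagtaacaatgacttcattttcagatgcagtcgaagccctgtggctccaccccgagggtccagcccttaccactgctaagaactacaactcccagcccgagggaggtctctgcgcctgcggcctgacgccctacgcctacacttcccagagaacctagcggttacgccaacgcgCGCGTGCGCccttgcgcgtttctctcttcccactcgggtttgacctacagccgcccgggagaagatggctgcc
NDUFS1 (chr2:206159395-206159694, minus strand): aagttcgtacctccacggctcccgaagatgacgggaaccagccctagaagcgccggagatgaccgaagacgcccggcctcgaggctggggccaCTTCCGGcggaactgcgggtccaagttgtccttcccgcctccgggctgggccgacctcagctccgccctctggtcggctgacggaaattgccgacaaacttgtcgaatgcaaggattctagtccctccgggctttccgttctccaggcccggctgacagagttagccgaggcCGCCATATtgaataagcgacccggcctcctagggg
NDUFA1 and COX8A each held 1 ETS match and ATP5O held 1 NRF1 match, while NDUFS1 held an ETS and a YY1 match. Over the 62 promoters, the NRF1 motif was present in 32.3% and in 11.0% of 15843 promoters of protein-coding genes, the ETS motif in 30.6% against 14.2%, and the YY1 motif in 27.4% against 6.43%. The 62 belong to genes that passed the expression filter, whereas the 15843 were not limited to such genes. The ESRRA motif TCAAGGTCA was present in 1 of the 62, against 0.24% of all. Matches to different motifs overlapped in 0 of the 62. Of the 26 promoters of members called lower, the NRF1 motif was in 10, the ETS motif in 8 and the YY1 motif in 8, and of the other 36 it was 10, 11 and 9. These are letter matches, not tested sites.

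Complex I, which oxidises NADH, had 15 of 37 tested members in the lower group and 0 in the higher, around a median of -0.56 (log2 fold change). NDUFA1, a small subunit of the membrane arm that is needed for assembly, was the most reduced member of all. It was at 107, 114, 80.9, 115 and 50.05 CPM in gCtl replicates 1 to 5, 32.2, 28.1 and 24.4 CPM in g1 and 25.3 and 14.4 CPM in g2. The groups did not overlap, although gCtl replicate 5 was at less than any other gCtl library. The mean was 93.2 ± 27.8 CPM (SD, n = 5) in gCtl and 24.9 ± 6.59 CPM (SD, n = 5) in the guide libraries (log2 fold change -1.91 ± 0.24 (SE), edgeR adjusted p = 0.000132). The single NDUFA1 transcript shares 341 bases with exons of RNF113A on the opposite strand, and use of strand in the counting is not stated in the sources used here. RNF113A was at 4.71 to 8.75 CPM in gCtl and 4.66 to 6.98 CPM in the guide libraries.

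The Q module of complex I, which hands electrons to ubiquinone, had 3 of 5 members lower (NDUFS3, NDUFS7 and NDUFS8, where NDUFS7 and NDUFS8 hold iron-sulfur clusters and NDUFS3 none). NDUFS3 was at 88.7, 89.2, 67, 71.2 and 53.1 CPM in gCtl replicates 1 to 5, 24.3, 27.6 and 19.1 CPM in g1 and 29.1 and 19.9 CPM in g2. The groups lay well apart (log2 fold change -1.62 ± 0.17 (SE), edgeR adjusted p = 5.87e-05), but nearly all of these counts belonged to a transcript that is not annotated as coding, as described further on.

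The N module, which binds NADH, had 4 of 10 members lower in the pooled comparison (against 11.0% of all genes). It had 3 of 10 lower for g1 (against 9.94%) and 7 of 10 for g2 (against 13.0%). NDUFV1, which carries the flavin and the NADH site, fell from 114 ± 9.11 CPM to 66.1 ± 8.69 CPM (SD, n = 5 each, log2 fold change -0.78 ± 0.13 (SE), edgeR adjusted p = 0.000827). Only 0.228% of NDUFV1 counts lay on protein-coding transcripts, and the call was lost with the length trend removed. NDUFA12, an accessory subunit of this module, fell from 33.3 ± 5.27 CPM to 14.4 ± 4.05 CPM (log2 fold change -1.21 ± 0.20 (SE), edgeR adjusted p = 0.00104). NDUFS1, which holds iron-sulfur clusters, did not pass the test and is shown as a contrast chosen after its values were seen. It was at 140.2, 149, 129, 137 and 132 CPM in gCtl replicates 1 to 5, 169, 177 and 183 CPM in g1 and 165 and 125 CPM in g2. Of the guide libraries 4 lay above every gCtl library and g2 replicate 2 lay below every one (log2 fold change 0.25 ± 0.13, edgeR adjusted p = 0.168).

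In the membrane arm, 3 of 10 proximal members and 4 of 11 distal members were lower. NDUFB2 of the distal arm was at 81, 89, 68.4, 72.2 and 66.2 CPM in gCtl replicates 1 to 5, 38.8, 32.7 and 35 CPM in g1 and 34.1 and 31.1 CPM in g2. Its groups did not overlap and spread little (log2 fold change -1.13 ± 0.13 (SE), edgeR adjusted p = 7.25e-05). NDUFB8 (log2 fold change -1.29 ± 0.20 (SE), edgeR adjusted p = 0.000622), NDUFB11 (log2 fold change -0.96 ± 0.17 (SE), edgeR adjusted p = 0.00127) and, in the proximal arm, NDUFA11 (log2 fold change -0.90 ± 0.14 (SE), edgeR adjusted p = 0.000757) were lower as well. The call of NDUFA11 was lost with the length trend removed. The distal arm had 6 of 11 members lower with g1 (against 9.94% of all genes) and 3 of 11 with g2 (against 13.0%). NDUFA4 is counted here by its name, although it is now held to be a subunit of complex IV. It was lower (log2 fold change -1.12 ± 0.26 (SE), edgeR adjusted p = 0.00688) with overlapping groups, and counted with complex IV it leaves 14 of 36 members lower in complex I and gives 5 of 12 in complex IV.

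In complex II, the flavoprotein SDHA and the iron-sulfur protein SDHB were lower, whereas the membrane anchors SDHC and SDHD did not pass the test. SDHA was at 61.2, 71.6, 51.6, 60.6 and 44.3 CPM in gCtl replicates 1 to 5, 37.8, 39.7 and 39 CPM in g1 and 40.2 and 27.8 CPM in g2, with no overlap between the groups (log2 fold change -0.65 ± 0.15 (SE), edgeR adjusted p = 0.00774). SDHB was at 18.7, 10.5, 9.94, 18.1 and 3.34 CPM in gCtl replicates 1 to 5, 4.67, 2.74 and 2.8 CPM in g1 and 7.89 and 3.49 CPM in g2. SDHB was low throughout, and gCtl replicate 5 lay below 3 of the guide libraries (log2 fold change -1.47 ± 0.41 (SE), edgeR adjusted p = 0.0175). SDHA fell short of the fold minimum without gCtl replicate 2 (log2 fold change -0.56) or g2 replicate 2 (-0.57), and SDHB was not called without gCtl replicate 1 (-1.27) or gCtl replicate 4 (-1.29). The log2 fold changes of SDHC and SDHD were -0.28 ± 0.18 and -0.01 ± 0.23. SDHA and SDHB had 41.6% and 28.15% of their counts on protein-coding transcripts. Over those alone neither was called in the pooled comparison (log2 fold change -0.50 and -1.31).

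In complex III, 3 of 10 members were lower (median log2 fold change -0.26). CYC1, the cytochrome c1 that passes electrons to cytochrome c, was at 110.5, 130.5, 82.1, 109 and 74.8 CPM in gCtl replicates 1 to 5, 51.8, 40.3 and 38 CPM in g1 and 32.6 and 29.5 CPM in g2. All guide libraries lay below all gCtl libraries (log2 fold change -1.40 ± 0.18 (SE), edgeR adjusted p = 0.000179). UQCRC1, a core protein, fell from 63 ± 12.1 CPM to 33.4 ± 6.34 CPM (log2 fold change -0.91 ± 0.17 (SE), edgeR adjusted p = 0.00179). UQCRH, the hinge protein that joins cytochrome c1 and cytochrome c, fell from 79.8 ± 26.1 CPM to 29.9 ± 14.2 CPM (log2 fold change -1.42 ± 0.30 (SE), edgeR adjusted p = 0.00365), with g2 replicate 1 at 52.2 CPM above gCtl replicate 5 at 40.5 CPM. UQCRFS1, the Rieske iron-sulfur protein, was called lower with g2 (log2 fold change -0.95) and was at -0.01 with g1. UQCRHL, an intronless copy of UQCRH, was called higher with g2 and not with g1 (log2 fold change 1.13, edgeR adjusted p = 0.0352) and rested on g2 replicate 2, at 19.9 CPM against 5.92 CPM in g2 replicate 1, without which the log2 fold change was -0.0001. Reads of these near-identical genes may be split between them.

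In complex IV, the cytochrome c oxidase, 4 of 11 tested members were lower (median log2 fold change -0.44). COX8A, the widely expressed form of the smallest subunit, was at 76.2, 74.2, 67.7, 66 and 40.1 CPM in gCtl replicates 1 to 5, 15.5, 15.8 and 15.7 CPM in g1 and 35.1 and 6.54 CPM in g2. The 3 g1 libraries were almost equal, g2 replicates 1 and 2 lay far apart, and no guide library reached a gCtl library (log2 fold change -1.88 ± 0.31 (SE), edgeR adjusted p = 0.000961). COX6A1, the form of subunit 6A found outside muscle, was at 159, 141, 158, 171 and 85.8 CPM in gCtl replicates 1 to 5, 66.5, 72.8 and 59.7 CPM in g1 and 66 and 31.6 CPM in g2 (log2 fold change -1.27 ± 0.22 (SE), edgeR adjusted p = 0.00117). Its groups did not overlap. COX6C (log2 fold change -1.04 ± 0.19 (SE), edgeR adjusted p = 0.00169) and COX7B (log2 fold change -0.62 ± 0.18 (SE), edgeR adjusted p = 0.0192) were lower too, and COX7B was not called without gCtl replicate 1, 2 or 4 or g2 replicate 2 (log2 fold change -0.58 to -0.55). COX6C had 14.44% of its counts on protein-coding transcripts. Over those alone COX6C was not called (log2 fold change -0.64, edgeR adjusted p = 0.0872). The other members ran from COX4I1 at -0.53 ± 0.18 to COX7A2 at -0.07 ± 0.19. COX4I1 had an edgeR adjusted p of 0.044 and missed the fold minimum.

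In complex V, the ATP synthase, 9 of 17 tested members were lower and 1 was higher, with a median log2 fold change of -0.78. All 3 genes of the c-ring, which encode the same mature protein, were lower, namely ATP5G1 (log2 fold change -0.93 ± 0.21 (SE), edgeR adjusted p = 0.00607), ATP5G2 (log2 fold change -1.07 ± 0.23 (SE), edgeR adjusted p = 0.00425) and ATP5G3 (log2 fold change -0.62 ± 0.20 (SE), edgeR adjusted p = 0.0354). ATP5G3 was not called without gCtl replicate 1, 2 or 4, g1 replicate 1 or g2 replicate 2 (log2 fold change -0.62 to -0.48). In the peripheral stalk, ATP5O, the subunit that ties the stalk to the F1 head, was at 109.7, 90.7, 68.2, 98.7 and 40.1 CPM in gCtl replicates 1 to 5, 30.5, 25.7 and 25.2 CPM in g1 and 26.5 and 31.7 CPM in g2. All guide libraries lay below gCtl replicate 5, the lowest gCtl library (log2 fold change -1.54 ± 0.22 (SE), edgeR adjusted p = 0.000309). ATP5J of the stalk was also lower (log2 fold change -0.95), while ATP5F1 (-0.64, edgeR adjusted p = 0.0505) and ATP5H (0.03), named here after their values were seen, did not pass the test.

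Among the membrane subunits, ATP5J2 (subunit f) and ATP5L (subunit g) were lower and ATP5I (subunit e) was at -0.05. ATP5J2 was at 66.2, 68.9, 42.7, 48.4 and 33.8 CPM in gCtl replicates 1 to 5, 24.3, 30.2 and 20.9 CPM in g1 and 22.1 and 18.2 CPM in g2, without overlap (log2 fold change -1.17 ± 0.20 (SE), edgeR adjusted p = 0.00116). The F1 head was mixed. ATP5B, the catalytic beta subunit, fell from 90.4 ± 35.1 CPM to 32.9 ± 13.2 CPM (log2 fold change -1.46 ± 0.30 (SE), edgeR adjusted p = 0.00342) and ATP5C1, the gamma subunit, was lower at -0.94. ATP5A1, the alpha subunit, was picked out after its values were seen and was at 298, 315, 355, 375 and 307 CPM in gCtl replicates 1 to 5, 289, 442 and 277 CPM in g1 and 319 and 354 CPM in g2. Its groups overlapped, with a log2 fold change of 0.03 ± 0.15. ATP5D and ATP5E were at -0.54 ± 0.23 and -0.12 ± 0.14 and did not pass the test.

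ATP5S, now named DMAC2L and not a structural subunit of the purified enzyme, was the single member called higher. It was at 28.7, 33.6, 39.8, 37.5 and 36.8 CPM in gCtl replicates 1 to 5, 42.49, 54.4 and 52.5 CPM in g1 and 45.9 and 72.1 CPM in g2. Every guide library lay above every gCtl library (log2 fold change 0.60 ± 0.16 (SE), edgeR adjusted p = 0.0131). The call was lost in 9 of 25 alternative settings, in which the fold change stayed above 0, and among them were those without gCtl replicate 1 (log2 fold change 0.53), gCtl replicate 2 (0.58) or g2 replicate 2 (0.46). Its leading transcript overlaps exons of CDKL1 on the opposite strand, which was at 3.25 to 6.45 CPM in gCtl and 4.01 to 8.52 CPM in the guide libraries. The log2 fold change of CDKL1 was 0.54 ± 0.28 (SE), in the same direction as ATP5S, and was not called (edgeR adjusted p = 0.175). Whether reads of CDKL1 entered the ATP5S counts was not tested. Of the 79 leading transcripts 23 share bases with exons on the opposite strand, 8 of them among the 33 members called lower.

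**Figure D2:**
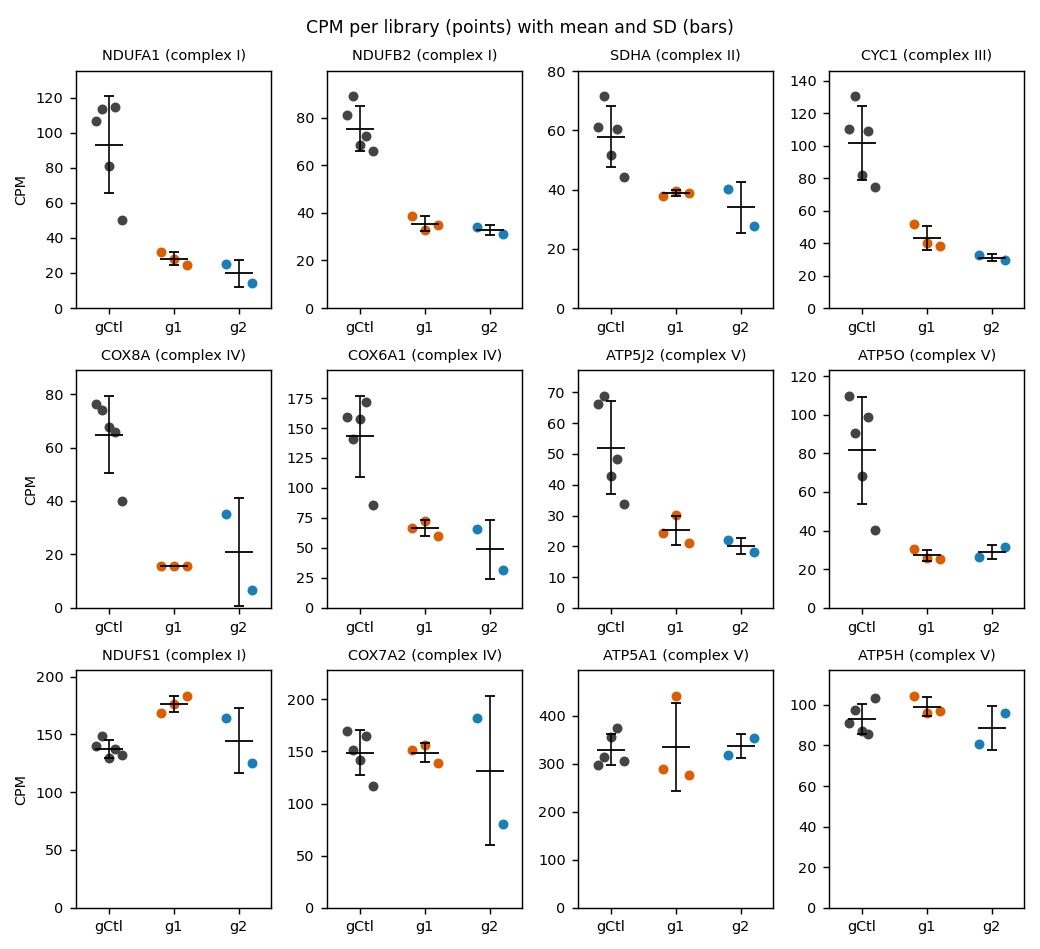
CPM of 12 subunit genes in each library, with the group mean and SD as bars and each axis starting at 0. In the panels from NDUFA1 to ATP5O the g1 and g2 points lie below all gCtl points, and in NDUFS1, COX7A2, ATP5A1 and ATP5H, chosen as contrasts after their values were seen, they do not.

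The summed CPM of the tested members was lower in each complex on average. Complex I summed to 3396 ± 370 CPM in gCtl and 2499 ± 302 CPM in the guide libraries (SD, n = 5 each), and the groups did not overlap (2972 to 3751 against 2043 to 2836). Complex III summed to 1502 ± 254 and 1185 ± 141 CPM and complex IV to 2275 ± 327 and 1626 ± 359 CPM. Complex II summed to 194.2 ± 38.2 and 144.9 ± 27.4 CPM and complex V to 4031 ± 496 and 2929 ± 485 CPM. In complexes II to V the groups overlapped. In complex II the guide libraries reached 191.9 CPM and gCtl went down to 147.1 CPM, and in the others gCtl replicate 5 (complexes III and IV) or gCtl replicate 3 (complexes III and V) lay below a g1 library. These sums weigh the members with most counts, such as ATP5L and ATP5E in complex V, and are given without a test.

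**Figure D3:**
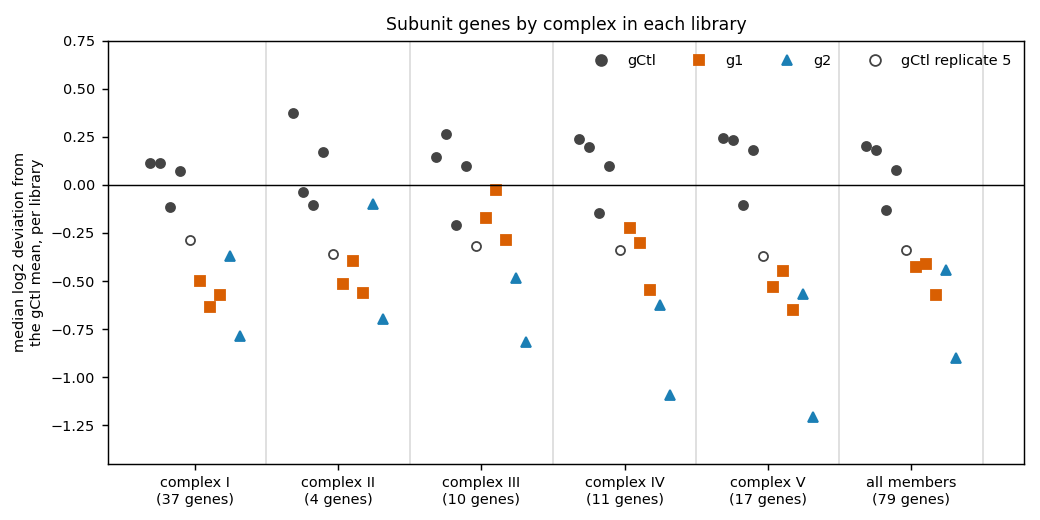
Median deviation of the members of each complex from their gCtl mean (log2 CPM scale), 1 point per library. Over all 79 members gCtl lies between -0.34 and 0.20 and the guide libraries between -0.90 and -0.41, with gCtl replicate 5 (open circle) lowest of the gCtl libraries.

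The isoforms that belong to other tissues were nearly absent. COX6A2, COX7B2 and COX8C had 0 counts in the 10 libraries, and COX4I2, COX7A1 and NDUFA4L2 had 1 or 2 counts in all. COX6B2 had 1 to 11.1 counts per library and missed the filter. The widely expressed forms COX4I1, COX6A1, COX6B1, COX7A2 and COX8A were all tested, of which COX6A1 and COX8A were lower in the pooled comparison. The read-through gene NDUFC2-KCTD14 had 0 counts and ATP5J2-PTCD1 had 3, and ATP5EP2, a copy of ATP5E, had 4.04. ATP5L2, a copy of ATP5L, was tested at 2.18 to 6.26 CPM and did not pass (log2 fold change -0.78 ± 0.31).

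The guides were compared next. With g1, 29 members were called lower (36.7%, against 9.94% of all genes) and 0 higher (against 6.81%), where 2 were higher at an unadjusted p under 0.05 by edgeR and DESeq2 and 1 by limma, none of them called. With g2, 37 were called lower (46.8%, against 13.0%) and 2 higher (ATP5S and UQCRHL, against 10.7%). The median log2 fold change was -0.52 with g1 and -0.68 with g2. Both comparisons share the gCtl libraries. By call, 23 members were lower with both guides, 6 with g1 only and 14 with g2 only (29.1%, 7.59% and 17.7%, against 5.71%, 4.23% and 7.29% of all genes), which does not test whether the guides differed. Leaving out a g2 library leaves 1 library of g2, so only effect sizes are given. The median log2 fold change of the members with g2 was -0.49 without g2 replicate 2 and -0.97 without g2 replicate 1.

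Tested against each other, g2 and g1 differed in 5 members, of which 4 were lower with g2 (5.06%, against 3.42% of all genes) and 1 was higher (1.27%, against 1.56%). NDUFA6, an accessory subunit of the N module, was at 178, 203, 168, 184 and 202 CPM in gCtl replicates 1 to 5, 184, 193 and 165 CPM in g1 and 97.2 and 41.9 CPM in g2. The g1 libraries lay within the range of gCtl, or for replicate 3 just under it, and both g2 libraries lay well below (log2 fold change -1.38 ± 0.26 (SE), edgeR adjusted p = 0.00671). NDUFV3 of the same module (log2 fold change -0.80 ± 0.17 (SE), edgeR adjusted p = 0.0131) and COX6B1 of complex IV (log2 fold change -0.98 ± 0.23 (SE), edgeR adjusted p = 0.0236) were lower in both g2 libraries than in any gCtl or g1 library. ATP5L was at 1292, 1592, 1089, 1316 and 1325 CPM in gCtl replicates 1 to 5, 1088, 927 and 746 CPM in g1 and 512 and 568 CPM in g2. Both g2 libraries lay below the 3 g1 libraries, and those lay below the gCtl libraries, by a narrow margin for g1 replicate 1 and gCtl replicate 3 (log2 fold change -0.77 ± 0.20 (SE), edgeR adjusted p = 0.0377). Only 0.7145% of ATP5L counts lay on protein-coding transcripts, and over those alone the log2 fold change of g2 against g1 was 1.73. NDUFB7 of the distal arm ran the other way, at 45.2, 15.6, 17.8, 27 and 13.9 CPM in gCtl replicates 1 to 5, 5.83, 3.8 and 8.4 CPM in g1 and 25.5 and 14.8 CPM in g2. It was low in g1 and within the gCtl range in g2 (log2 fold change 1.697 ± 0.45 (SE), edgeR adjusted p = 0.0407). With g1 replicate 1 left out the number of members that differed was 1. No count is given with a g2 library left out, as that leaves 1 library of g2.

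**Figure D4:**
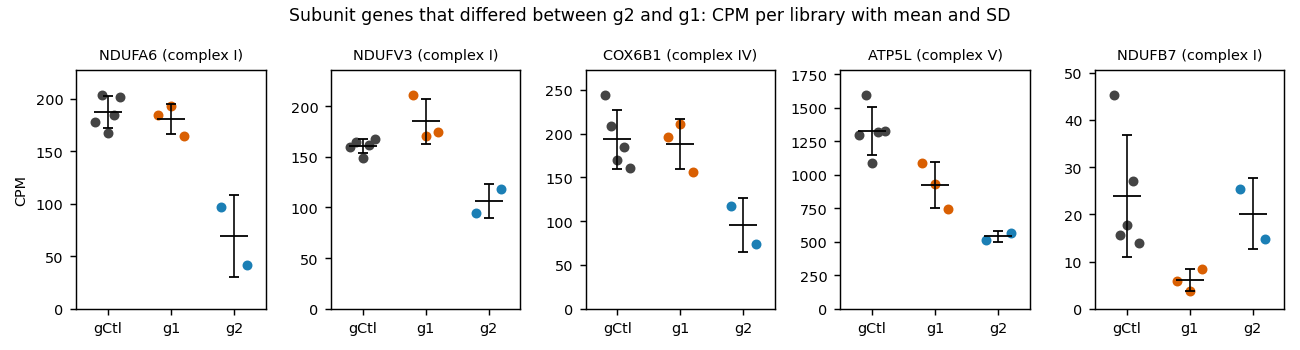
CPM per library of the 5 subunit genes that differed between g2 and g1, with group mean and SD. NDUFA6, NDUFV3, COX6B1 and ATP5L are lowest in g2, and NDUFB7 is lowest in g1.

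Which transcripts carried the counts mattered for some members. Kallisto divides reads among the annotated transcripts of a gene, and for 61 of 79 tested members the leading transcript was protein-coding, for 7 it was a processed transcript, for 6 it was annotated for nonsense-mediated decay and for 5 it retained an intron. In 19 members under 50% of the counts lay on protein-coding transcripts, and 15 of these 19 were called lower (median log2 fold change -0.93). Of the other 60 members, 18 were called lower (median -0.44). Counted over protein-coding transcripts alone, 74 members were tested and 23 were called lower (against 10.2% of all genes), with a median of -0.52, and 20 were lower in both ways of counting. By complex, 13, 0, 1, 4 and 5 members of complexes I to V were then lower. The 4 of complex IV included COX7C, described below, and not COX6C. The 5 members no longer tested (NDUFS7, NDUFV1, UQCRC1, ATP5B and ATP5O) had all been called lower.

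NDUFS3 changed its direction with the counting. The processed transcript NDUFS3-015, of 530 bases, held 92.9% of its counts and was at 74.0 RPM in gCtl and 19.5 RPM in the guide libraries (means, n = 5 each). Its protein-coding transcripts were at 0.787 to 4.10 RPM in gCtl and 3.0 to 5.70 RPM in the guide libraries, a log2 fold change of 0.86 that did not pass the test (edgeR adjusted p = 0.171). UQCRH had 17.3% of its counts on protein-coding transcripts, for which the log2 fold change was -0.10. By contrast NDUFA1, COX8A, CYC1, COX6A1 and NDUFB2, with 95.1% to 100% of counts on protein-coding transcripts, were lower in either way.

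COX7C showed the converse, and was picked out after its values were seen. Its total did not pass the test (log2 fold change -0.26, edgeR adjusted p = 0.419), but its protein-coding transcripts were at 369, 297, 232, 372 and 93.4 RPM in gCtl, at 43.2, 37.0 and 40.1 RPM in g1 and at 79.2 and 17.6 RPM in g2. All guide libraries lay below all gCtl libraries (log2 fold change -2.53, edgeR adjusted p = 0.00106). The protein-coding share of COX7C counts was 30.0% to 92.0% in gCtl and 9.83% to 24.9% in the guide libraries. The processed transcript COX7C-003 was at a mean of 81.9 RPM in gCtl and 253 RPM in the guide libraries, which was not tested on its own. Over all tested members the protein-coding share was 65.8% to 71.1% in gCtl and 68.5% to 73.3% in the guide libraries.

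**Figure D5:**
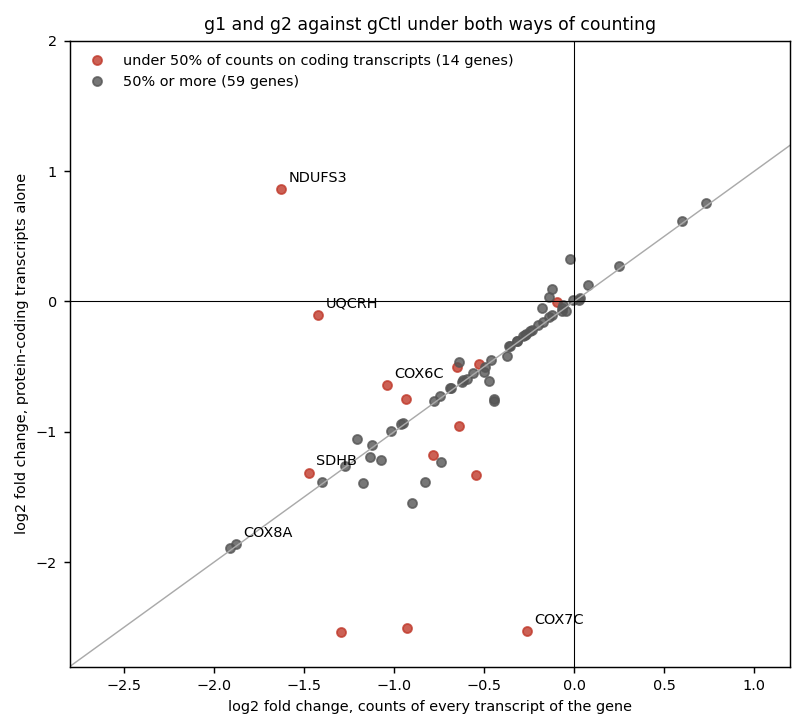
Log2 fold change of subunit genes tested in both ways of counting (1 left out) in the guide against the gCtl libraries, with the counts of every transcript on the x axis and of protein-coding transcripts alone on the y axis, the diagonal marking equal values and red marking genes with under 50% of counts on protein-coding transcripts. NDUFS3 lies at 0.86 and COX7C at -2.53 on the y axis, and most genes with 50% or more of their counts on protein-coding transcripts lie near the diagonal.

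The partners of these subunits were examined from lists of the pathway. Of 13 mitochondrially encoded proteins, all of them subunits of complexes I, III, IV and V, 10 were lower in the guide libraries (median log2 fold change -1.20), and with g2 all 13 were. MT-ND3 of complex I fell from 728.6 ± 209.4 to 209.4 ± 46.4 CPM (log2 fold change -1.80 ± 0.22, edgeR adjusted p = 0.000128) and MT-CO2 of complex IV from 2755 ± 578 to 869.8 ± 248.1 CPM (log2 fold change -1.66 ± 0.21, edgeR adjusted p = 0.000153). MT-ND5, chosen after its values were seen, was 1 of the 3 that did not pass (log2 fold change -0.35 ± 0.25). All mitochondrially encoded RNA made up 22.1% ± 2.39 of counts in gCtl and 17.7% ± 3.54 in the guide libraries (SD, n = 5 each, exact two-sided permutation test, p = 0.0397). The g1 libraries all lay within the gCtl range, which went down to 18.3% in gCtl replicate 1. Only the g2 libraries lay below that range, with g2 replicate 1 at 16.8% and g2 replicate 2 lower still. With the mitochondrially encoded genes left out before scaling, 34 nuclear members were lower, against 11.2% of all genes.

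Assembly factors, which put the complexes together but are not part of them, were called lower in 5 of 45 (11.1%, near the 11.0% of all genes). With g1 it was 3 of 45 (6.67%, against 9.94%), and with g2 14 of 45 (31.1%, against 13.0%). COX17, the copper chaperone of complex IV, fell from 62.8 ± 22.1 to 25.6 ± 5.68 CPM (log2 fold change -1.29 ± 0.24, edgeR adjusted p = 0.00173), and COX14, which acts on the synthesis of MT-CO1, from 16.3 ± 5.63 to 3.09 ± 0.711 CPM (log2 fold change -2.40 ± 0.27, edgeR adjusted p = 7.25e-05). Among 17 tested carriers and feeders of electrons, 2 were lower and 1 higher (11.8% and 5.88%, near the 11.0% and 8.14% of all genes). NDUFAB1, the acyl carrier protein that is also bound in complex I, was lower at -1.24 ± 0.29, and ATPIF1, the inhibitor of the ATP synthase, was lower at -0.66 ± 0.18 (-0.52 and not called without g2 replicate 2). COQ7, an enzyme of ubiquinone synthesis, rose from 5.78 ± 1.62 to 12.1 ± 3.35 CPM (log2 fold change 1.08 ± 0.25, edgeR adjusted p = 0.00682). CYCS, cytochrome c itself and picked after its values were seen, was at -0.09 ± 0.15.

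Of 9 known transcriptional regulators of these genes 7 were tested and 0 were called in the pooled comparison by edgeR's quasi-likelihood test or DESeq2 (2 at an unadjusted p under 0.05, TFAM and YY1), while limma called TFAM. TFAM, which packs mitochondrial DNA and starts its transcription, was at 237.5 to 387.4 CPM in gCtl and 185.2 to 227.2 CPM in the guide libraries without overlap (log2 fold change -0.58 ± 0.15, edgeR adjusted p = 0.0121), just under the fold minimum, and was called lower with g1. YY1 was at 150.7 to 190.3 and 190.9 to 255.6 CPM (log2 fold change 0.41 ± 0.12, edgeR adjusted p = 0.0267), also under the fold minimum. NRF1, GABPA, GABPB1, PPRC1 and PPARGC1B had log2 fold changes of -0.20, 0.32, -0.12, 0.21 and 0.19. PPARGC1A and ESRRA were too low to test.

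Other large assemblies were set beside the subunit genes. Mitochondrial ribosomal proteins were lower in 15 of 76 (19.7%) and higher in 2, with a median log2 fold change of -0.27, and cytosolic ribosomal proteins were lower in 20 of 81 (24.7%) and higher in 1, with a median of -0.21. The share of respiratory chain members called lower was above both (41.8%), a description without a test of the difference.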

How the data were processed

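RNA of 10 Caco-2 libraries (5 gCtl, 3 g1 and 2 g2) was sequenced with the QuantSeq 3' kit. The authors quantified transcripts with kallisto (version 42.5 in the submitters' processing notes) against GENCODE 24, and the deposited files hold estimated counts per transcript, which are not normalised. Here the estimated counts were summed per gene over all 199169 transcripts and rounded. Genes with a protein-coding transcript and over 3 RPM in at least 20% of libraries were tested with edgeR 4.0.16 (R 4.3.3, quasi-likelihood test, TMM scaling), pooled over both guides and for each guide in a fit of the 3 groups. Genes were called at 1.5-fold or more where the p adjusted over all 11640 genes (Benjamini-Hochberg) did not exceed 0.05. Alternatives used DESeq2 1.42.0, limma 3.58.1 on log2(value + 1), other scalings and filters, and each library left out in turn. On simulated data with 200 genes changed 3-fold, edgeR recovered 99% (both guides pooled), 97% (g1) and 95.5% (g2). The simulation gave every gene the same spread, and recovery of smaller changes, such as most of those reported here, was not simulated. That spread was smaller than in the pooled fit, and both simulated guides had the same effect, so the recovery may be higher than in these data.

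The members and lists were chosen with earlier results of these data known. Genes named were the called members of smallest p in each complex, all of complex II, members called higher or between guides, paralog groups, up to 2 genes in each direction of each pathway list and every listed regulator. Module counts also name members outside that rule (such as UQCRFS1, ATP5C1, ATP5J and ATP5I), which were chosen after their values were seen. The values of 1 member are not reported here, and it is left out of the plots of fold changes. Promoters came from RefSeq, matched by symbol for 67 of 89 members. Depth limits genes at a few counts, and an estimated count also carries the uncertainty of dividing reads among transcripts, which was not estimated here.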

Additional observations from a re-analysis of the deposited data

Results flagged for a closer look

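COX8A in gCtl replicate 5 was at 40.11 CPM, apart from the other 4 gCtl libraries at 65.95 to 76.22 CPM, by more than the 95% critical gap of Dixon's test. Chance alone gives such a gap in about 1 in 20 groups, and 51 genes were looked at in gCtl. Every guide library lay below gCtl replicate 5 for COX8A.

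The effect of the guides differed by the test of g2 against g1 in 5 members. The log2 fold change of g2 against g1 was -1.38 for NDUFA6, -0.80 for NDUFV3, -0.98 for COX6B1, -0.77 for ATP5L and 1.697 for NDUFB7. The call of NDUFA6 held with each gCtl or g1 library left out in turn. NDUFV3 was not called without g1 replicate 1 (-0.70), and COX6B1 without g1 replicate 1 (-0.95) or 2 (-0.89). ATP5L was not called without gCtl replicate 4 (-0.77) or g1 replicate 1 (-0.63) or 2 (-0.76). NDUFB7 was not called without gCtl replicate 3 or 4 or g1 replicate 1 or 2 (1.48 to 1.7). Without a g2 library, which leaves 1 library of g2, only log2 fold changes are given. Without g2 replicate 1 they were -0.64 for NDUFV3, -0.69 for ATP5L and 1.27 for NDUFB7. Without g2 replicate 2 they were -0.66 for COX6B1 and -0.82 for ATP5L.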

How the results depend on the processing

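No paired analysis was possible because the labels carry no replicate numbers. The results were computed again in 25 alternative settings. The members called in the pooled comparison numbered 34 as reported and 26 to 40 with a library left out. With a test against the fold minimum itself (glmTreat) 12 members were called in the pooled comparison, 12 with g1 and 12 with g2. All of these were lower, against 2.84%, 2.83% and 4.44% of all genes. Between the guides glmTreat called 0 (5 lower and 2 higher at an unadjusted p under 0.05), where edgeR's usual test gave 5 calls and DESeq2 gave 7. With a library left out, g1 gave 23 to 36 calls and g2 gave 19 to 50, the lowest without g2 replicate 2 and the highest without g2 replicate 1. Protein-coding transcripts alone gave 23 calls with g2 against 39 as reported. Between the guides, 9 members were called with no filter on low values, 3 with limma on RPM, 3 with limma on TPM, 9 with the length trend removed and 11 with length and GC trends removed, a setting chosen after seeing the data. That count was 1 to 14 with a library left out, namely 1 without g1 replicate 1, 2 without g1 replicate 2, 3 without gCtl replicate 4 and 14 without g2 replicate 1.

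Called members that turned sign over protein-coding transcripts alone were NDUFS3 (0.86 pooled, 0.88 with g1 and 0.83 with g2), UQCRH with g2 (0.54) and ATP5L between the guides (1.73). With members that were not called included, the sign differed in 5 of 74 pooled, 5 with g1 and 4 with g2. PPARGC1B with g2 was at -0.88 with limma on TPM. COX8A between the guides ran from -1.25 without g2 replicate 1 to 1.18 without g2 replicate 2, and UQCRHL with g2 from -0.0001 without g2 replicate 2 to 1.74 without g2 replicate 1. The cause of these changes was not tested. Of the 33 members called lower in the pooled comparison, 8 (ATP5J2, COX6A1, COX8A, CYC1, NDUFA1, NDUFA12, NDUFB2 and NDUFB8) kept that call in every setting run, 12 in every setting but glmTreat, and 24 with any one library left out. ATP5B and ATP5O are not among the 8, because they were not tested over protein-coding transcripts alone. Both kept the call in each setting in which they were tested. Low counts, as of SDHB and UQCRHL, limit what these depths can show.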
